A study of Mus musculus with 4 samples.

Results

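Cells rich in transcripts of the clustered histone genes were examined among sorted stromal cells of the embryonic mouse gut. A cell was taken as histone-rich when at least 5 of 7 genes were detected (Hist1h1a, Hist1h1b, Hist1h2ae, Hist1h2ab, Hist1h4d, Hist2h2ac and Esco2), fewer than 4 of 6 mitotic genes were detected (Ccnb2, Cdkn3, Cenpa, Knstrn, Plk1 and Cdc20), and no transcript of Upk3b, Sox10 or Prph was present. These last 3 genes mark mesothelium, enteric glia and their precursors, and enteric neurons. Of 23188 cells that passed the filters, 2365 (10.2%) were histone-rich. They were set, within each library, against 12806 low-histone cells, in which at most 1 of the 7 genes and none of Upk3b, Sox10 and Prph was detected. Another 2443 cells held a transcript of an excluded lineage, and 573 of these carried 5 or more of the 7 genes. The last 5574 cells lay between the states, among them 1463 with 5 or more of the 7 genes that had 4 or more mitotic genes. The name of the cells rests on transcripts, and DNA content was not measured.

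Most histone protein is made while DNA is being copied. The genes that supply it lie in clusters, are transcribed mainly in S phase, and give short mRNAs without introns that end in a conserved stem-loop in place of a poly(A) tail. Stem-loop binding protein holds these mRNAs stable and lets them be translated, and they are degraded when replication ends. Esco2, the only other gene in the positive part of the gate, acetylates cohesin during S phase so that sister chromatids stay together. In the embryonic gut the mesenchyme proliferates while it forms smooth muscle and fibroblast layers.

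All animals were untreated E12.5 embryos of EYFP (C57BL/6) mice, in which a Cre-activated reporter gives yellow fluorescence. Small intestine (SI) and large intestine with cecum (LI) were each sampled in 2 libraries, from 2 independent experiments that pooled 3 to 5 embryos. Cells were sorted as live, Itgb1+ and YFP+ and as CD45-, Ter119-, CD31- and EpCAM-. Stage and region were taken from the titles, while further fields mention adult tissue and colonic lamina propria. Pooled embryos were not separated, so p-values measure the spread between these libraries only.

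The 4 libraries held 31630548 to 62886525 unique molecular identifiers (UMIs, counts of captured transcripts) in 5151 to 6881 barcodes, and any pair of libraries shared 8 to 15 barcodes. LI replicate 1 was the shallowest, at 4278.5 UMIs in the median kept cell against 8518 to 8932 in the others. Libraries were made with either a 3′ or a 5′ kit, both of which prime on poly(A), and which library used which kit is not given in the sources used here. The part of the kit in differences between libraries was not tested, and neither was the share of histone mRNA that such priming misses.

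Some of the 7 genes carry the histone stem-loop in their annotated transcripts, and these are shown because this element, rather than a poly(A) tail, normally ends the transcripts that define the cells. In GENCODE transcripts of GRCm38 (mm10), a 6-base stem closed by a 4-base loop was found in 42 of 65 clustered histone genes with an annotated stop codon. Capitals mark the paired stem bases. The elements of Hist1h2ab (chr13:23751572-23751587, plus strand), Hist1h2ae (chr13:23570668-23570683, minus strand), Hist1h4d (chr13:23581950-23581965, plus strand) and Hist2h2ac (chr3:96220418-96220433, minus strand) lie in the 3′ UTR of each gene and are given 5′ to 3′ with 5 bases on either side.
Hist1h2ab: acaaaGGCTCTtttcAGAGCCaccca
Hist1h2ae: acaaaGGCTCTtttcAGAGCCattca
Hist1h4d: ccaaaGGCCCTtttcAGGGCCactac
Hist2h2ac: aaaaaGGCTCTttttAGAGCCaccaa
The annotated transcripts ran on for 11, 151, 770 and 57 bases after the element in Hist1h2ab, Hist1h2ae, Hist1h4d and Hist2h2ac. No element was found in Hist1h1a or Hist1h1b, whose annotated 3′ UTRs hold 48 and 0 bases. Counts of near-identical histone genes are uncertain, since reads may be split or dropped. Windows of 100 bases shared with another histone gene made up 52.4% of the Hist1h2ab transcript, 30.7% of Hist1h2ae and 6.89% of Hist2h2ac, and 0% of Hist1h1a, Hist1h1b and Hist1h4d.

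Hist1h1b and Hist1h2ae were detected in nearly all histone-rich cells. Hist1h1b encodes a linker histone and lies at chr13:21779883-21780625 on the minus strand. It was detected in 99.7% and 99.5% of histone-rich cells of LI replicates 1 and 2 and in 100% of those of SI replicates 1 and 2. Its level was 1806, 1702, 2016 and 1834 CPM (UMIs of the gene per 1000000 UMIs of the summed cells) in histone-rich cells of LI replicate 1, LI replicate 2, SI replicate 1 and SI replicate 2, and 51.6, 24.1, 37.3 and 26.6 CPM in low-histone cells. Hist1h2ae, an H2A gene, was detected in 96.8%, 99.5%, 99.9% and 98.1% of histone-rich cells. Hist1h2ab, also an H2A gene, was at the other end of the 7 and was detected in 50.6% to 70.4% of histone-rich cells. Esco2 was detected in 64.6%, 79.4%, 80.6% and 82.8% of histone-rich cells of the 4 libraries in the same order. Of the mitotic genes of the gate, Ccnb2, a B-type cyclin, had 51.3, 35.5, 38.5 and 40.6 CPM in histone-rich cells against 59.0, 41.7, 83.4 and 56.6 CPM in low-histone cells. Plk1, a mitotic kinase, had 69.8, 39.7, 53.6 and 43.2 CPM against 25.8, 14.3, 28.0 and 17.7 CPM. These values follow from the rule and are given as a description. All 6 listed marker genes of the cells were thus present in every library.

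Clustered histone transcripts together took 0.535%, 0.532%, 0.445% and 0.464% of all UMIs of histone-rich cells, with the 2 LI libraries given first and those of SI after them. The same genes took 0.0420%, 0.0359%, 0.0343% and 0.0296% in low-histone cells. A histone-rich cell held a median of 31.5 histone UMIs in LI replicate 1, the shallowest library, and of 46 to 58.5 in the others. The spread among cells was wide. From the 5th to the 95th percentile, the share ran from 0.246% to 0.945% in LI replicate 1 and from 0.172% to 0.881% in SI replicate 2. H1 genes gave 48.8% to 60.8% of these UMIs, H2A genes 23.0% to 30.7%, H4 genes 6.41% to 10.3%, H2B genes 4.59% to 8.02% and H3 genes 4.20% to 7.12%. These shares include the 6 histone genes of the gate, of which 2 are H1, 3 H2A and 1 H4 genes, so the order of the families follows in part from the rule.

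Of the histone-rich cells, 918 had 5 of the 7 genes, 896 had 6 and 551 had 7. Just inside the threshold, the clustered histone share of cells with 5 genes was 0.468%, 0.396%, 0.369% and 0.345% in the same order of libraries. Just outside it, cells with 4 genes that met the other conditions held 0.380%, 0.233%, 0.255% and 0.234%. The change across the threshold was gradual, and there were 322, 87, 265 and 176 cells just outside against 315, 106, 283 and 214 just inside. Top2a, which untangles newly copied DNA, stood at 1025, 842, 880 and 889 CPM just inside and at 965, 535, 756 and 836 CPM just outside.

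**Figure D1:**
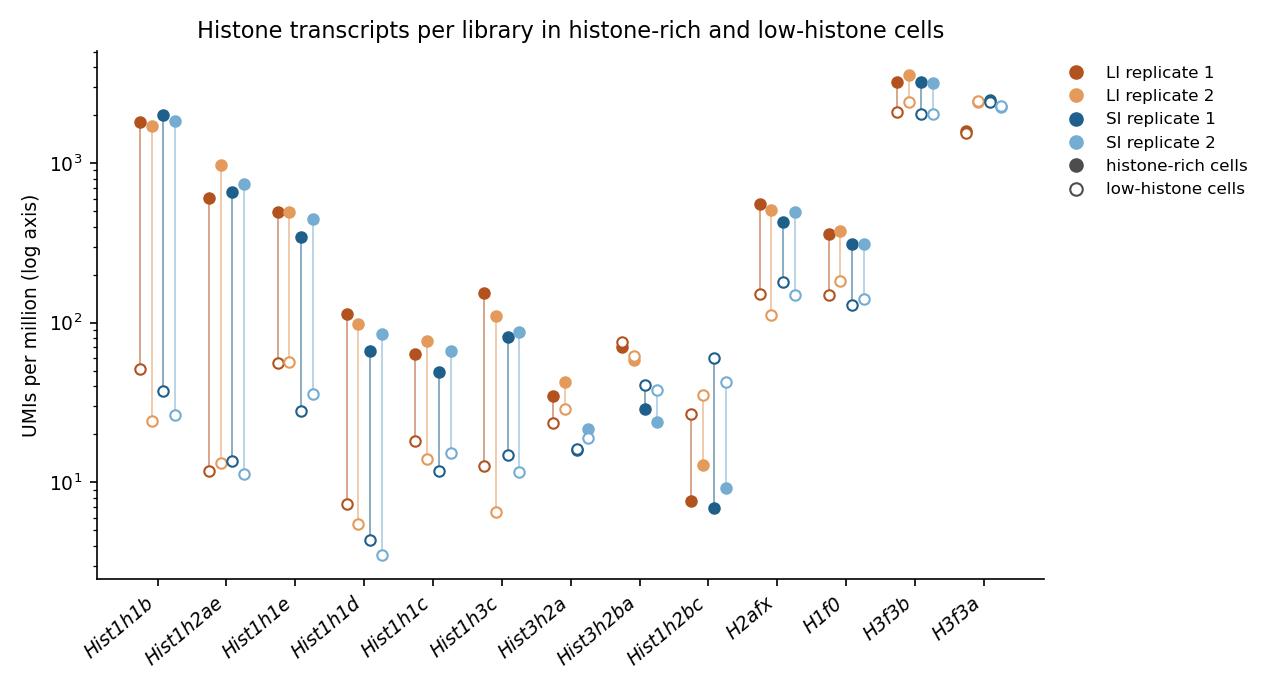
Levels of histone and histone-related genes in each library (CPM, log axis), with filled points for histone-rich cells and open points for low-histone cells, 1 pair per library. Hist1h1b and the other genes of the gate are separated by selection, and Hist1h2bc and, by less, Hist3h2ba are drawn with the open points on top, Hist1h2bc at 26.8 to 59.7 against 6.90 to 12.8 CPM.

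Detecting 5 of 7 genes needs transcripts, and histone-rich cells were deeper. Their median UMI count was 5915, 12134, 10543 and 11051.5 in the same order of libraries, against 3718, 7517.5, 7536.5 and 7614 in low-histone cells. The mean log2 ratio was 0.60 ± 0.10 (SD, n = 4), higher in 4 of 4 libraries (exact permutation test, two-sided, p = 0.125, the smallest that 4 pairs allow). Median mitochondrial share was 3.104%, 3.92%, 3.69% and 4.26% against 3.34%, 4.26%, 3.87% and 4.56%. Removal of the cells with the highest doublet scores took 6.92%, 5.96%, 4.78% and 7.14% of histone-rich cells and 3.44%, 2.19%, 1.04% and 2.84% of low-histone cells. The part of depth and of doublets in the results was not tested beyond the refits with thinned cells and without these high-scoring cells.

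The share of kept cells that were histone-rich was 10.1% (95% Wilson interval 9.38 to 10.9) in LI replicate 1, 9.11% (8.33 to 9.96) in LI replicate 2, 12.9% (12.0 to 13.8) in SI replicate 1 and 8.92% (8.25 to 9.63) in SI replicate 2. Intervals cover counting error only. SI held 10.9% ± 2.80 (SD, n = 2) and LI 9.60% ± 0.697 (SD, n = 2), a difference of 1.29 percentage points that is smaller than the spread between the SI libraries (exact permutation test, two-sided, p = 1; 2 against 2 allows no p under 0.333). The libraries of SI lay on either side of those of LI. Without SI replicate 1 the difference was -0.687 and without SI replicate 2 it was 3.27 points. When each cell was thinned to 3000 UMIs, which left out shallower cells and kept 5430, 4583, 5287 and 6478, the shares fell to 6.32%, 4.997%, 3.57% and 3.60%, and the difference became -2.07 points (exact permutation p = 0.333). LI then stood above SI in both libraries. Thinning both equalised UMIs and dropped cells, most of them in LI replicate 1, and the cause of the turn was not tested.

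**Figure D2:**
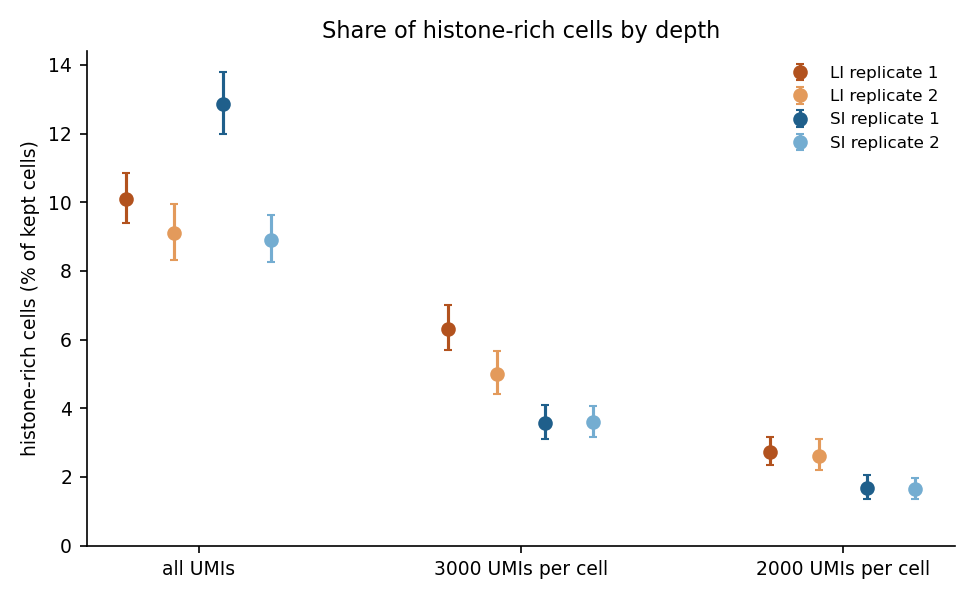
Share of kept cells that were histone-rich (percent, axis from 0) in the 4 libraries, with 95% Wilson intervals, for all UMIs and after thinning each cell to 3000 or 2000 UMIs. With all UMIs the SI libraries lie at 12.9% and 8.92% around the LI libraries, and after thinning to 3000 UMIs they lie at 3.57% and 3.60%, below LI at 6.32% and 4.997%.

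Genes beyond the gate were compared between histone-rich and low-histone cells with UMIs summed per library and state. The cells were chosen by transcripts measured in the same cells, so genes transcribed together with the 7 differ by that choice. Calls among cell cycle genes below describe what the gate collected and are no independent support for its name. With edgeR's quasi-likelihood test and library as a block, 5506 of 13254 genes (41.5%) had an adjusted p under 0.05, of which 2842 (21.4%) were higher and 2664 (20.1%) lower in histone-rich cells. The median log2 fold change over all tested genes was -0.03. Larger differences were fewer, with 482 genes (3.64%) higher and 287 genes (2.17%) lower by more than 1 on the log2 scale. The shares of 21.4% higher and 20.1% lower are the background for each list below. After each cell was thinned to 3000 UMIs, 2250 genes were called. The gate was applied anew to the thinned counts, so the cells in each state changed together with their depth. Histone-rich cells then numbered 343, 229, 189 and 233 in place of 650, 436, 691 and 588, with LI libraries first. Low-histone cells numbered 3256, 3202, 3141 and 4625 in place of 3751, 2736, 2414 and 3905. Fold changes after thinning below refer to these cells. Between cells with 0 of the 6 mitotic genes in both states, 2294 were called.

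Clustered histone genes outside the gate were higher as a group. Of 63 such genes, 47 passed the filter on low counts, and 43 of these were higher and 1 lower, with a median log2 fold change of 2.9997. The higher genes were 3 of 3 tested H1, 10 of 10 H2A, 13 of 15 H2B, 9 of 10 H3 and 8 of 9 H4 genes. A gene at 0 in low-histone cells passes this filter only through the histone-rich cells, and 4 of all 69 clustered genes had no UMI in histone-rich cells. The background is 21.4% of tested genes higher. After thinning, 39 were called and the median was 3.13, and between cells with 0 mitotic genes 35 were called and the median was 3.31.

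Hist1h1e, a linker histone gene that was not part of the gate, had 497, 491, 345 and 445 CPM in histone-rich cells of LI replicates 1 and 2 and SI replicates 1 and 2. In low-histone cells it had 55.6, 57.0, 27.8 and 35.6 CPM. The ranges did not overlap, and the log2 fold change was 3.46 ± 0.08 (SE; edgeR adjusted p = 5.74e-10). Hist1h1d, another linker histone gene, had 113, 97.9, 66.1 and 84.4 CPM against 7.28, 5.50, 4.33 and 3.50 CPM, a log2 fold change of 4.26. Hist1h1c, the linker histone gene with the smallest difference, had 63.9, 77.2, 49.4 and 66.5 CPM against 18.1, 13.9, 11.8 and 15.2 CPM, a log2 fold change of 2.21.

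Hist1h2bc ran the other way. This H2B gene had 7.61, 12.8, 6.90 and 9.14 CPM in histone-rich cells and 26.8, 35.4, 59.7 and 42.7 CPM in low-histone cells of LI replicates 1 and 2 and SI replicates 1 and 2. It was lower in 4 of 4 libraries without overlap (log2 fold change -2.14 ± 0.20, SE; edgeR adjusted p = 7.67e-06). When cells with 4 or more mitotic genes were left out of the low-histone cells, the log2 fold change was -1.89. Between cells with 0 of the 6 mitotic genes it was 0.49 (adjusted p = 0.248), so its direction changed with the mitotic genes allowed. Its annotated transcript has a 3′ UTR of 742 bases with a poly(A) signal and no stem-loop. Hist3h2ba, an H2B gene on chromosome 11 with a stem-loop, had 70.2, 58.2, 28.8 and 24.0 CPM against 75.5, 62.1, 40.6 and 38.0 CPM and was not called (edgeR adjusted p = 0.0768). It was called lower with mitotic cells left out of the low-histone cells (-0.30, edgeR adjusted p = 0.0251) and between cells with 0 mitotic genes (-0.43, adjusted p = 0.0480). It was also called without LI replicate 1 or without LI replicate 2 (lowest adjusted p = 0.0198).

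Tested clustered histone genes with an annotated stop codon fell into 4 groups by transcript end. With a stem-loop and at most 100 bases after it, 13 of 13 were higher, with a median log2 fold change of 3.29 and a range of 1.68 to 5.52. With a stem-loop and more than 100 bases after it, 14 of 16 were higher, with a median of 2.42 and a range of -0.23 to 4.26. Without a stem-loop and with a 3′ UTR over 100 bases, 2 of 3 were higher and Hist1h2bc was lower. Without an annotated stem-loop and with a shorter 3′ UTR, 12 of 13 were higher, with a median of 3.26. Most of these annotated transcripts stop at the end of the coding sequence, such as Hist1h2bn with 0 bases and Hist1h2af with 1 base of 3′ UTR. An element could not be found in such transcripts, so this group does not stand for genes that lack one. The groups overlapped in range.

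Listed histone genes outside the clusters differed less. Of 10 tested, 9 were higher and 0 lower (background 21.4% and 20.1%), with a median log2 fold change of 0.62. H2afx, whose product is phosphorylated at broken DNA, had 551, 508, 426 and 495 CPM against 151, 112, 180 and 150 CPM (log2 fold change 1.83). H3f3b, a gene for the replacement histone H3.3, had a log2 fold change of 0.71, and H3f3a, which encodes the same protein, had 0.09, a call that was lost without LI replicate 1, without SI replicate 1 and after thinning (0.01). H2afy2, a macroH2A gene, was not called (-0.01).

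Among 13 factors that act on histone mRNA or histone protein, 10 were higher and 2 lower (background 21.4% and 20.1%), with a median log2 fold change of 0.66. Slbp, the stem-loop binding protein, had 345, 414, 419 and 424 CPM in histone-rich cells and 158, 157, 182 and 169 CPM in low-histone cells. The groups did not overlap (log2 fold change 1.35 ± 0.05, SE; edgeR adjusted p = 7.01e-09). The chaperones Asf1b (2.32), Chaf1a (1.35) and Nasp (0.95), which bring new histones to DNA, were higher. Lsm10 (-0.37), a subunit of the particle that cuts histone mRNA, and Cabin1 (-0.24), a part of the chaperone complex for H3.3, were lower, and Cabin1 was not called after thinning (-0.19).

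**Figure D3:**
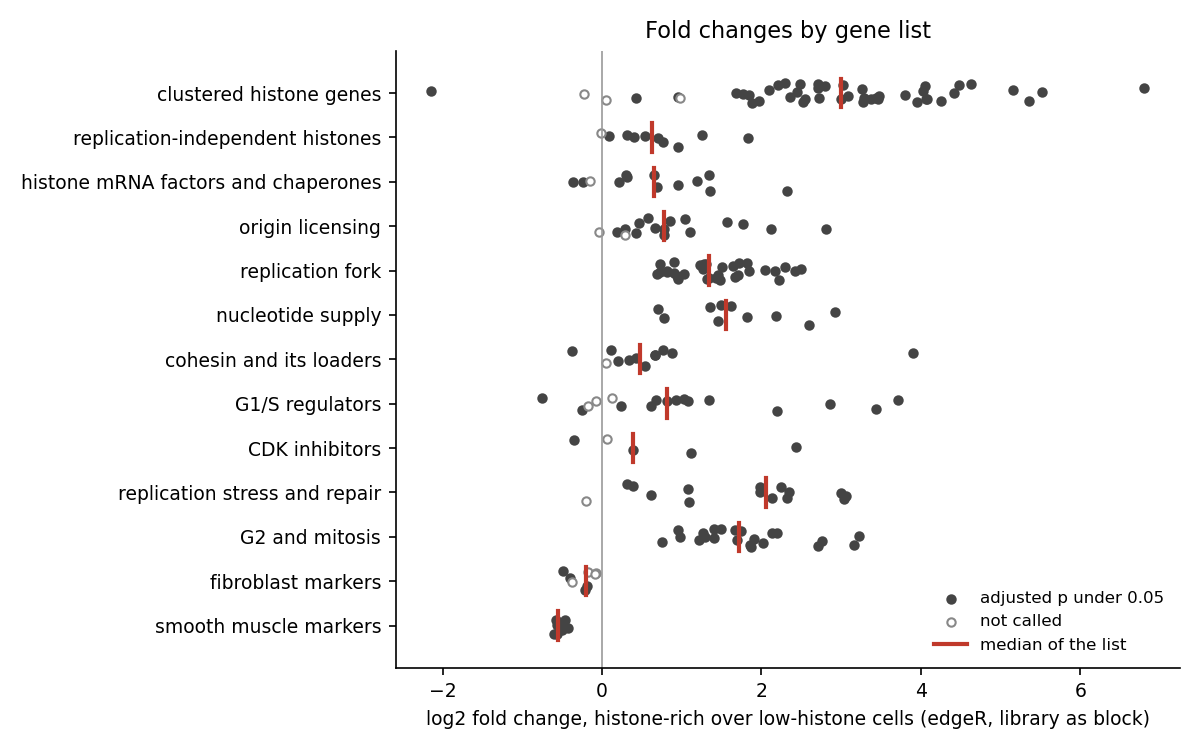
Log2 fold changes of histone-rich over low-histone cells for the reported genes of each list, 1 point per gene, with the median over all tested genes of the list drawn (1 tested gene of the repair list is not plotted). Clustered histone genes reach furthest to the right (median 2.9997), the licensing, fork, nucleotide supply and repair lists lie mostly above 0 (medians 0.78 to 2.06), and smooth muscle markers lie below 0 (median -0.55).

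Upstream sequences are shown for 2 histone genes of the gate, a gene that licenses origins and a mitotic gene, since these groups differ in the short motifs they carry. RefSeq promoters of GRCm38.p6 (250 bases before to 50 after the start) were matched to the lists where the start lay within 2000 bases of the GENCODE start. The motifs searched on either strand were the CCAAT box, the TATA-type letters TATAAA and E2F-type sites (TTTCGCGC, TTTGGCGC or TTTCCCGC), and capitals mark them in the 100 bases before the start. The windows are chr13:21780626-21780725 (minus strand) for Hist1h1b, chr13:23581468-23581567 (plus strand) for Hist1h4d, chr4:108579354-108579453 (plus strand) for Orc1 and chr11:99024190-99024289 (minus strand) for Top2a, each written 5′ to 3′.
Hist1h1b: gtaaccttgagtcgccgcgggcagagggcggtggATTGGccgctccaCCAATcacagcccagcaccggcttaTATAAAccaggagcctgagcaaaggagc
Hist1h4d: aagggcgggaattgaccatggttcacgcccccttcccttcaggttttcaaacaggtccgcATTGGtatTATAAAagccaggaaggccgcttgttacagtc
Orc1: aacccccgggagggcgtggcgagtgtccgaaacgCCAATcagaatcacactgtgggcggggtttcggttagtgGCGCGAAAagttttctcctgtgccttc
Top2a: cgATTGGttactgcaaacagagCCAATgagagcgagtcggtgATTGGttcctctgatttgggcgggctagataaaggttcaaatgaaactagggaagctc
Over all 27025 promoters, 37.9% held CCAAT, 14.2% TATAAA and 1.91% an E2F-type site. Of 60 matched clustered histone promoters, 85% held CCAAT, 58.3% TATAAA and 16.7% an E2F-type site. Of 15 matched licensing promoters, 66.7% held CCAAT, 0% TATAAA and 60% an E2F-type site. Of 18 matched promoters of the G2 and mitosis list, 83.3% held CCAAT, 0% TATAAA and 5.56% an E2F-type site. A match describes letters in the window, and binding was not measured.

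Origin licensing loads the MCM helicase onto DNA before S phase. Of 17 licensing genes, 15 were higher and 0 lower (background 21.4% and 20.1%), with a median log2 fold change of 0.78. Mcm10 (2.81), which helps to start the helicase, had 54.5, 65.4, 45.7 and 56.5 CPM in histone-rich cells of LI replicates 1 and 2 and SI replicates 1 and 2, and 10.7, 6.01, 10.2 and 7.20 CPM in low-histone cells. The groups stood apart. Gmnn (2.12), which blocks a second round of licensing, and Cdc6 (1.77), a loading factor, were also higher. The helicase subunits differed less, from 0.29 for Mcm2 to 0.86 for Mcm5. Orc1, whose promoter is shown above, had 0.78. After thinning, 10 of the 17 were called, and Orc1 (0.62) and Mcm2 (0.05) were not.

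Replication fork genes were higher in 33 of 33 (background 21.4%), with a median log2 fold change of 1.35, and all 33 were also called after thinning. Pcna, the sliding clamp that holds the polymerase, had 100.2, 170, 133 and 131 CPM against 37.4, 41.2, 52.6 and 45.9 CPM (log2 fold change 1.66). Clspn (2.50), which carries the checkpoint signal at stalled forks, and Cdc45 (2.42), a helicase cofactor, had the largest differences of the list. Nucleotide supply genes were higher in 10 of 10 (median 1.56, background 21.4%). Rrm2, the limiting subunit of ribonucleotide reductase, had 275, 519, 456 and 390 CPM against 55.2, 59.0, 112 and 64.6 CPM (2.60), and Tk1 (2.92) and Tyms (2.18), which supply thymidine nucleotides, were higher too.

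Cohesin genes were higher in 10 of 12 and lower in 1 (background 21.4% and 20.1%), with a median log2 fold change of 0.48. Cdca5, the protein sororin that protects acetylated cohesin, had 96.0, 63.5, 73.3 and 59.8 CPM against 7.61, 3.52, 6.92 and 3.41 CPM (3.90). Esco1, the paralogue of Esco2, was lower (-0.38), and 0.00580 after thinning. Genes for replication stress and repair were higher in 15 of 16 (median 2.06, background 21.4%), among them Fancd2 (3.06) and Brca1 (3.03), which act in the repair of crosslinks and breaks. Ung, which removes uracil from DNA, was not called (-0.21), but was called lower after thinning (-0.97, edgeR adjusted p = 2.62e-06) and without LI replicate 2 (adjusted p = 0.00247), and higher between cells with 0 mitotic genes (0.56, adjusted p = 0.00409).

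Regulators of entry into S phase were mixed. Of 17, 12 were higher and 2 lower, against 21.4% and 20.1% of all tested genes. E2f8, a repressor of the E2F family, had 56.7, 93.0, 64.7 and 80.3 CPM in histone-rich cells and 7.87, 4.56, 9.14 and 7.49 CPM in low-histone cells (log2 fold change 3.44). The activator E2f2 had 3.72 and the repressor E2f7 2.86, and the other activators, E2f1 and E2f3, had 1.03 and 0.67. Among cyclins, Ccne2 had 38.6, 53.6, 54.8 and 54.0 CPM against 11.6, 7.85, 16.95 and 11.3 CPM (2.19), and Ccne1 had 1.08.

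D-type cyclins, which drive G1, were lower or not called. Ccnd2 had 492, 455, 571 and 486 CPM in histone-rich cells and 1026, 886, 882 and 798 CPM in low-histone cells of LI replicates 1 and 2 and SI replicates 1 and 2. It was lower in 4 of 4 libraries without overlap (log2 fold change -0.75 ± 0.06, SE; edgeR adjusted p = 1.2e-06). Ccnd3 was lower (-0.25). Ccnd1 had 109.8, 53.5, 75.4 and 69.8 CPM against 83.1, 69.1, 114 and 91.6 CPM, higher in LI replicate 1 and lower in the others, and was not called (-0.17) unless LI replicate 1 was left out (-0.39, edgeR adjusted p = 0.00131). Of 5 inhibitors of cyclin-dependent kinases, 3 were higher and 1 lower, against 21.4% and 20.1% of all tested genes. Cdkn1c (p57) had 699, 798, 832 and 1091 CPM against 890, 1153, 1145 and 1427 CPM (-0.35), whereas Cdkn2c (2.43), Cdkn2d (1.12) and Cdkn1b (0.39) were higher, and Cdkn1b was not called between cells with 0 mitotic genes (0.22). Cdkn1a, the p53 target p21, was not called (0.06).

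Genes of G2 and mitosis outside the gate were higher in 22 of 22 (background 21.4%), with a median log2 fold change of 1.72. The gate allowed up to 3 of the 6 mitotic genes, and the low-histone cells held 1148 cells with 4 or more of them. Top2a had 1090, 917, 874 and 933 CPM against 144, 77.3, 126 and 94.9 CPM (3.22). Aurkb (3.16), Mki67 (2.76) and Ccna2 (1.90) were higher, as were Ccnb1 (0.98) and Ube2c (0.76). These values depended on the mitotic low-histone cells. With those cells left out, Ccnb1 was at 3.48, Ube2c at 3.19, Ccna2 at 3.63, Mki67 at 4.16, Top2a at 4.69 and Aurkb at 5.11. Between cells with 0 of the 6 mitotic genes the median was 4.21.

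Histone-rich cells were not uniform in the mitotic genes they held. Cells with 0, 1, 2 and 3 mitotic genes numbered 129, 193, 181 and 147 in LI replicate 1, 54, 103, 141 and 138 in LI replicate 2, 55, 192, 211 and 233 in SI replicate 1, and 61, 157, 175 and 195 in SI replicate 2. Values across this count describe how the gate and its neighbours are ordered, and were not tested. The summed level of licensing genes in cells with 0 mitotic genes was 2445, 2492, 2430 and 2495 CPM. In cells with 5 or more of the 7 genes and 4 to 6 mitotic genes, which lay outside the gate, it was 1169, 1209, 1262 and 1177 CPM. Ccne2 had 75.2, 78.2, 83.3 and 85.7 CPM at 0 mitotic genes and 9.30, 14.0, 12.4 and 11.7 CPM at 4 to 6. Both measures were thus lower at the high end in all 4 libraries, without overlap.

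Genes of G2 and mitosis ran from 3459, 2800, 3259 and 3098 CPM at 0 mitotic genes to 8693, 8291, 7587 and 7838 CPM at 4 to 6, a direction that is in part set by sorting on 6 such genes. Clustered histone transcripts had no common order across libraries. They had 5802, 4433, 4684 and 4209 CPM at 0 and 4404, 4500, 3669 and 3984 CPM at 4 to 6, lower in 3 of 4 libraries and higher in LI replicate 2.

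**Figure D4:**
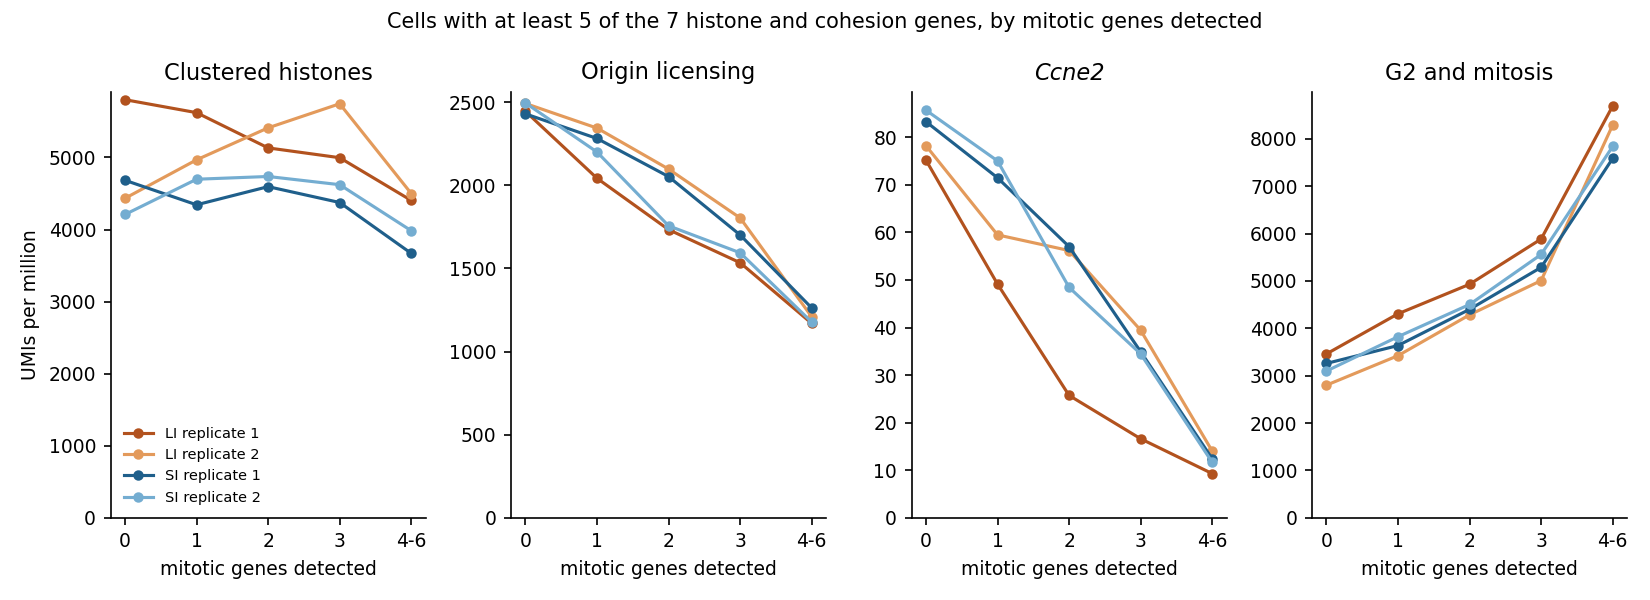
Summed levels (CPM) of gene lists in cells with 5 or more of the 7 genes, by the number of the 6 mitotic genes detected, 1 line per library. Licensing genes fall from 2430 to 2495 at 0 to 1169 to 1262 at 4 to 6 mitotic genes, while clustered histone transcripts stay between 3669 and 5802.

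Lineage genes played no part in the gate beyond the 3 excluded ones. Smooth muscle markers were lower in 8 of 8 tested (median log2 fold change -0.55), against 20.1% of all tested genes. Acta2, smooth muscle actin, had 240, 648, 971 and 1599 CPM in histone-rich cells and 290, 973, 1389 and 2694 CPM in low-histone cells of LI replicates 1 and 2 and SI replicates 1 and 2. It was lower within each of the 4 libraries, while the ranges over libraries overlapped (-0.47 ± 0.06, SE; edgeR adjusted p = 1.47e-04). Cnn1, calponin, had -0.60, and Des, desmin, -0.53. Cells with at least 3000 UMIs were counted as smooth muscle when Acta2, Actg2, Myh11, Cnn1 and Tagln together had more than 2 UMIs after thinning. This held for 17.3%, 33.6%, 44.3% and 55.4% of histone-rich and 23.7%, 39.7%, 49.9% and 61.5% of low-histone cells. When these cells and all cells under 3000 UMIs were left out, Acta2 was at 0.66 (edgeR adjusted p = 2.56e-05) and Actg2 at 0.43 (adjusted p = 0.0179). Des stayed lower at -0.54 (edgeR adjusted p = 3e-05) and Myl9, a myosin light chain, at -0.24 (adjusted p = 0.00602). The other 4 markers were not called in this fit. It removed cells by Acta2, Actg2, Myh11, Cnn1 and Tagln themselves, and not by Des, Myl9 or Myocd. Fewer cells of a type and less RNA per cell cannot be told apart in sums.

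Fibroblast markers were lower in 4 of 8 and higher in 0, with a median log2 fold change of -0.20 and a background of 20.1% lower. Col1a1 had 61.6, 137, 132 and 236 CPM against 93.7, 221, 197 and 318 CPM (-0.49), and Col1a2 (-0.40), Pdgfra (-0.22) and Col3a1 (-0.19) were also called. Col1a1, Col1a2 and Col3a1 encode fibrillar collagen chains and Pdgfra encodes a receptor for platelet-derived growth factor. Pdgfra was at 0.03 after thinning. Dcn, Lum, Tcf21 and Postn were not called (-0.38, -0.17, -0.07 and -0.09). Dcn, a matrix proteoglycan, was called lower after thinning (-1.10, edgeR adjusted p = 3.71e-06). With mitotic cells left out of the low-histone cells, Dcn (-0.45, adjusted p = 0.0227) and Lum (-0.22, adjusted p = 0.0221) were called lower, as they were without SI replicate 1 (-0.62 and -0.29). Tcf21, a mesenchymal factor, was called lower between cells with 0 mitotic genes (-0.32, adjusted p = 0.00589). In these cells Pdgfra (-0.16) and Col3a1 (-0.11) were not called.

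Markers of other cell types were scarce or lower, with some exceptions. Of 8 enteric neural markers, summed at 152, 27.8, 107 and 86.5 CPM in histone-rich and 107, 154, 164 and 142 CPM in low-histone cells, 1 was higher and 2 were lower, shares near those over all genes (21.4% and 20.1%). Foxd3, a neural crest factor, had 9.09, 3.84, 19.1 and 8.84 CPM against 1.85, 1.74, 3.80 and 3.12 CPM, higher without overlap (1.95 ± 0.20, SE; edgeR adjusted p = 1.77e-05), from 21 to 144 UMIs per library in histone-rich cells. Between cells with 0 mitotic genes, which are fewer, it was at 1.65 and not called (adjusted p = 0.214). Tubb3, a neuronal tubulin, had 31.2, 0.549, 6.11 and 6.44 CPM against 34.7, 39.7, 47.0 and 30.0 CPM, with little difference in LI replicate 1 (-1.95, and -1.04 after thinning). Elavl4, a neuronal RNA-binding protein, was lower too (-0.90), in 3 of 4 libraries and not in LI replicate 1 (22.1 against 18.5 CPM), a call that was lost without SI replicate 2 and after thinning, where it was at -0.16 (adjusted p = 0.665).

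Epithelial markers summed to 87.0, 35.0, 25.9 and 10.5 CPM against 142, 54.1, 49.3 and 19.2 CPM, with Cdh1 and Cldn6 at 0 in histone-rich cells, and 3 of 3 tested were lower against a background of 20.1% (Epcam -1.75, Krt8 -0.97, Krt18 -0.35). Between cells with 0 mitotic genes Epcam was at -0.00823 (edgeR adjusted p = 0.994) and Krt8 at -0.29 (adjusted p = 0.664), and after thinning Krt18 was at -0.34 (adjusted p = 0.102), so each of the 3 calls ended under 1 of these alternatives. Mesothelial markers summed to 11.2 to 23.3 CPM against 12.1 to 41.8 CPM, with Msln at 0, and none of 5 tested was called. Single genes were called lower under an alternative, Wt1 with 0 mitotic genes (-1.21, edgeR adjusted p = 0.0115), Krt19 after thinning (-2.40, adjusted p = 0.0382) and Krt7 with mitotic cells left out of the low-histone cells (-1.34, adjusted p = 0.0354). Krt19 and Krt7 were also called without SI replicate 1 (adjusted p = 0.00541 and 0.0306). Immune markers summed to under 1 CPM in histone-rich cells, with Ptprc and Tyrobp at 0, and 1 tested gene (Fcer1g) was lower, a call lost without LI replicate 1 or SI replicate 1. Endothelial markers summed to 1.86 to 4.05 CPM against 3.05 to 5.02 CPM, with Cdh5 at 0, and Cldn5 was lower, a call lost without SI replicate 1. Erythroid markers summed to 7.61, 1.65, 31.7 and 6.74 CPM against 7.27, 1.41, 3.12 and 6.98 CPM, and none of 3 tested was called.

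Genes of gut mesenchyme subgroups and of hedgehog signalling differed by less. Gli1 (0.42), Ptch1 (0.27) and Hhip (0.33), transcriptional targets of the pathway, were higher, and 5 of 11 genes of the list were higher and 1 lower, against 41.5% of all tested genes called, with none called after thinning. Gli1 had 32.9, 22.7, 24.7 and 20.4 CPM against 23.1, 18.8, 18.8 and 17.8 CPM. Adamdec1 (0.86) rested on SI replicate 2, without which it stood at -0.23, and Bmp3 (0.75) lost its call without SI replicate 1 or SI replicate 2. Wnt4 was lower (-0.53), a call lost without LI replicate 1 or SI replicate 1.

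Of 15 regional genes, 2 were higher and 4 lower in histone-rich cells, a share near the 41.5% called over all genes. Hoxd13, the most posterior gene of its cluster, had 8.60 and 11.3 CPM (35 and 62 UMIs) in histone-rich cells of LI replicates 1 and 2 against 2.12 and 1.46 CPM (32 and 31 UMIs) in low-histone cells, while SI held 0 and 0.150 CPM against 0 and 0 CPM. The log2 fold change was 2.64 ± 0.32 (SE; edgeR adjusted p = 1.06e-04). Hoxa13 had 16.2 and 13.9 CPM against 8.40 and 6.30 CPM in LI (1.18). Hoxd9 ran the other way with 141 and 102 CPM against 228 and 152 CPM in LI (-0.52), as did Hoxd10 (-0.39) and Hoxc10 (-0.38). Hoxd11 (-0.16) lost its call without LI replicate 1, LI replicate 2 or SI replicate 2. With 0 mitotic genes in both states Hoxd13 was at 3.84 and Hoxd9 at -1.12. After thinning, Hoxa13 (0.77), Hoxd10 (-0.22), Hoxc10 (-0.17) and Hoxd11 (-0.20) were not called.

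Outside the lists, the 5 called genes with the largest rise and the 5 with the largest fall were taken among those with an average log2 CPM over 5 and the same direction in 4 of 4 libraries. Mxd4, a MAX partner that opposes MYC, had 26.8, 25.6, 22.7 and 25.6 CPM against 97.9, 118, 98.8 and 98.4 CPM (-1.96). Nefm (-1.32), a neurofilament subunit, Maf (-1.26), a bZIP factor, Igfbp5 (-1.18), which binds insulin-like growth factors, and Pdcd4 (-1.10), an inhibitor of translation, were lower as well, and after thinning Nefm was at -0.30 and not called. Pbk (3.42), Fbxo5 (3.38), 2810417H13Rik (3.30), Cdca2 (2.97) and Ncapg (2.88) were higher. Fbxo5 inhibits the anaphase-promoting complex, Ncapg is a condensin subunit, and 2810417H13Rik is the older symbol of a PCNA-associated factor.

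**Figure D5:**
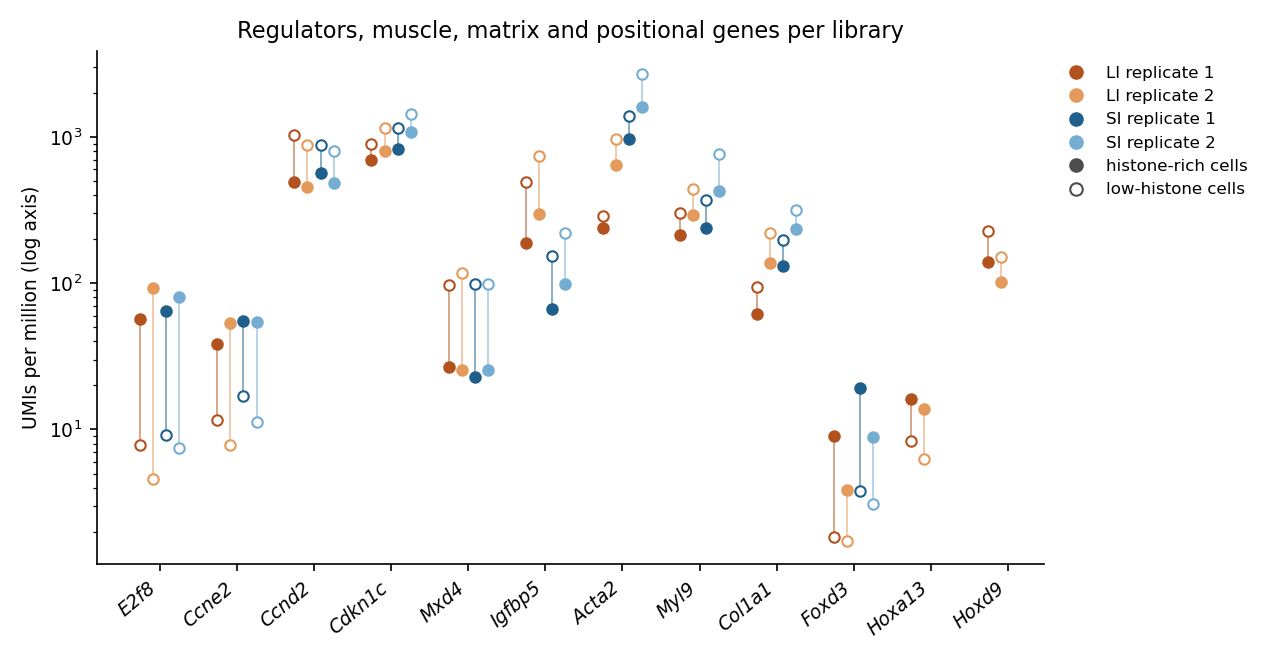
Levels (CPM, log axis) of cell cycle regulators, matrix, muscle, neural crest and positional genes in histone-rich cells (filled) and low-histone cells (open) of each library, with SI left out for Hoxa13 and Hoxd9. E2f8 and Ccne2 are higher in histone-rich cells of all 4 libraries, while Ccnd2, Cdkn1c, Mxd4, Igfbp5, Acta2, Myl9 and Col1a1 are lower in all 4.

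The region of the gut was not used by the gate, and histone-rich cells were therefore also compared between SI and LI, 2 libraries a side. Of 11754 genes tested with edgeR, 183 (1.56%) were called, with 70 (0.596%) at a higher level in SI and 113 (0.961%) at a higher level in LI. The number rests on single libraries. It was 524 without LI replicate 1 and 1466 without LI replicate 2, and 98 after thinning. None of the 17 licensing, 33 fork, 10 nucleotide supply, 12 cohesin, 17 S phase entry, 5 inhibitor, 16 repair and 22 G2 and mitosis genes was called. Their median log2 fold changes of SI over LI lay between -0.08 and 0.49, against 0.01 over all genes. A p that misses the threshold does not show that the regions are alike, and over all genes 1323 had an unadjusted p under 0.05.

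Clustered histone genes had a median log2 fold change of -0.54 over 51 tested genes, and 1 of them, Hist3h2ba, was called lower in SI. This gene was named after its values were seen. It had 70.2 and 58.2 CPM in LI and 28.8 and 24.0 CPM in SI (-1.17 ± 0.22, SE; edgeR adjusted p = 0.0289), and the call was lost without SI replicate 2. Low-histone cells had the same order, with 75.5 and 62.1 CPM in LI and 40.6 and 38.0 CPM in SI. Of the histone genes of the gate, Hist1h4d had 375 and 285 CPM in LI against 144 and 171 CPM in SI, and Hist1h1b had 1806 and 1702 against 2016 and 1834 CPM, values that the gate shapes in both regions.

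Regional identity was visible in histone-rich cells. Pitx1, a factor of the hindgut, had 143 and 133 CPM in LI replicates 1 and 2 from 1312 UMIs, and 0 UMIs in SI, so its level in LI was at least 652-fold higher than a floor of 3 UMIs over the SI libraries. Hoxd11 had 210 and 187 CPM in LI and 0.133 and 4.95 CPM in SI (-6.23), and Hoxd10 (-6.83), Hoxd9 (-6.70) and Hoxa10 (-5.83) were also higher in LI. These Hox genes pattern the posterior body.

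Genes higher in SI included Aldh1a2, which makes retinoic acid, with 22.1 and 48.3 CPM in LI and 337 and 254 CPM in SI (3.18 ± 0.32, SE; edgeR adjusted p = 9.99e-04). Hoxa4 (3.31), Alcam (2.45), Angptl1 (2.44), Pkdcc (2.28) and Sfrp1 (2.02), a secreted inhibitor of WNT, were higher in SI as well. All 15 regional genes were called, 6 higher in SI and 9 in LI. The list was chosen with regional differences of these libraries known, so this count is no independent evidence. Named after their values were seen, Lum, a matrix proteoglycan, had 35.1 and 43.0 CPM in LI against 77.0 and 82.6 CPM in SI (1.14), a call lost without SI replicate 2, and Des, of the smooth muscle list (median 1.05, 1 of 8 called), had 78.8 and 69.0 against 18.2 and 32.2 CPM (-1.45), a call lost without SI replicate 1.

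Whether the difference between states itself differed between regions was tested with an interaction term in the fit that holds the library. Of 13254 genes, 5 were called (0.0377%), 2 with a positive term (0.0151%) and 3 with a negative term (0.0226%), and without SI replicate 1 or SI replicate 2 none was, with 708 and 784 genes at an unadjusted p under 0.05 in edgeR. Sfrp1 had 125 and 129 CPM in histone-rich against 82.1 and 74.2 CPM in low-histone cells of LI. In SI it had 540 and 411 CPM against 593 and 446 CPM (interaction -0.89 ± 0.07 log2, SE; edgeR adjusted p = 0.00607). It was thus higher in histone-rich cells of both LI libraries and lower in those of both SI libraries.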

How the data were processed

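Single-cell RNA sequencing was carried out on sorted stromal cells from E12.5 small and large intestine, with 2 libraries per region. Per the file headers the authors ran Cell Ranger 3.1.0 on mm10 and deposited raw UMI counts per gene and barcode, whose values carry no normalization. The submitters' processing notes also name Seurat 3. Each column belonged to a mapped sample. Cells with 1000 or more detected genes and under 10% mitochondrial UMIs entered. Members and lists were chosen with earlier results of these data known.

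Counts were summed per library and state and tested with edgeR 4.0.16 (limma 3.58.1, R 4.3.3), filterByExpr, TMM scaling and the quasi-likelihood test, with Benjamini-Hochberg adjustment and a threshold of 0.05. The comparison of states and the interaction had library as a block, and regions were compared among histone-rich cells without one. The 16 genes of the gate were left out of the comparison of states and described only. Shares were compared with exact permutation tests and Wilson intervals at 95%. No doublets were removed in the reported values. As an alternative, the cells with the highest Scrublet scores (scanpy 1.11.5) were dropped, at 0.8% per 1000 barcodes.

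Genes were named by rule: for each list the smallest adjusted p values, every listed cyclin, inhibitor, E2F and MCM gene and every cell type marker, unlisted genes and regional genes by size of change at an average log2 CPM over 5, and the 5 interaction genes with the smallest adjusted p. A gene named outside this rule is given as an example of its list or is marked. With 200 genes changed in simulated counts, 95.5% were recovered for the states (12997 genes), 87% for the region (11559 genes) and 27% for the interaction (13020 genes), with 6, 7 and 4 false calls. The simulation changed well-counted genes only, gave all genes a common dispersion and held no differences between libraries other than depth. These rates therefore do not carry over to the measured counts. Alternatives covered DESeq2 1.42.0, filters, thresholds of the gate, thinning, smooth muscle cells, blocks and single libraries. Cells with 0 mitotic genes and counting cells with 4 or more mitotic genes were added after seeing the data. Stem-loops came from GENCODE M21 (GRCm38), in which 28339 listed identifiers were found, and promoters from RefSeq GRCm38.p6. Some listed genes are not reported here.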

Additional observations from a re-analysis of the deposited data

Results flagged for a closer look

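The difference between histone-rich and low-histone cells differed between SI and LI for 5 genes by edgeR's interaction test (adjusted p under 0.05), and Sfrp1 (-0.887, SI minus LI, log2) is described above. Lgi2, a secreted leucine-rich repeat protein, had 96.0 and 96.7 CPM in histone-rich against 61.6 and 61.3 CPM in low-histone cells of LI, and 112 and 87.1 against 122 and 99.3 CPM in SI (-0.857 ± 0.08, SE; adjusted p = 0.00695). Hmga2, a chromatin protein of embryonic cells, had 1347 and 1321 against 1308 and 1232 CPM in LI, and 987 and 860 against 1188 and 1028 CPM in SI (-0.386 ± 0.05; edgeR adjusted p = 0.0240). Both were higher in histone-rich cells of the LI libraries and lower in those of the SI libraries. Thsd7a, a thrombospondin-repeat protein, had 5.65 and 7.32 against 9.66 and 13.8 CPM in LI, and 4.65 and 9.29 against 1.85 and 2.76 CPM in SI (2.40 ± 0.27; edgeR adjusted p = 0.0240). Edil3, a matrix protein that binds integrins, had 32.4 and 35.7 against 38.1 and 47.9 CPM in LI, and 14.9 and 18.7 against 6.87 and 9.68 CPM in SI (1.31 ± 0.15; edgeR adjusted p = 0.0240). These 2 genes ran the opposite way.

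None of the 5 calls held without SI replicate 1 or without SI replicate 2, and those of Thsd7a, Hmga2 and Edil3 were also lost without LI replicate 2 (adjusted p = 0.0685). The fit without smooth muscle cells also left out shallower cells, and the part of each change was not tested. In that fit the folds stayed close to those above, at -0.720 for Sfrp1 (edgeR adjusted p = 0.262), -0.982 for Lgi2 (0.0793), -0.292 for Hmga2 (0.674) and 1.09 for Edil3 (0.262). Thsd7a kept its call at 2.31 (edgeR adjusted p = 0.0468). After thinning Sfrp1 kept its call at -0.903 (edgeR adjusted p = 0.00263). Thsd7a was then at 1.97 (adjusted p = 0.542), Hmga2 at -0.352 (0.0900), Lgi2 at -0.632 (0.508) and Edil3 at 0.436 (0.956), so Edil3 was the gene whose fold fell most. With 0 mitotic genes in both states, Lgi2 (-0.687, adjusted p = 0.107) and Edil3 (1.54, 0.0525) lost their calls, while Sfrp1 was called at -1.54, Thsd7a at 3.92 and Hmga2 at -0.393.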

How the results depend on the processing

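For histone-rich against low-histone cells, 5506 genes were called, against 3606 with the DESeq2 Wald test, 2250 after thinning, 1114 without the library block, 2294 with 0 mitotic genes and 4157 to 4771 with 1 library left out. Between regions, 183 were called, against 605 without a filter, 98 after thinning, 114 without smooth muscle cells, 54 with 0 mitotic genes and 219 to 1466 with 1 library left out. With a replicate block, 765 were called, including all 183; same-numbered libraries of LI and SI deviated together (r = 0.260 over 11754 genes, -0.260 for crossed numbers, values that 2 pairs tie together), and the labels do not say that numbers mark a batch. For the interaction, 5 genes were called, against 240 without a filter, 15 at 4 or more of the 7 genes, 3 without smooth muscle cells, 14 with fewer than 4 mitotic genes in low-histone cells, 49 with 0 mitotic genes and 0 to 10 with 1 library left out. The share difference of SI minus LI was 1.29 points, against -2.07 and -1.01 after thinning to 3000 and 2000 UMIs, 3.94 with cells of 4 or more mitotic genes counted, and -0.687 to 3.27 with 1 library left out. The fits without smooth muscle cells also left out all cells under 3000 UMIs. The cause of the shifts in these counts and shares was not tested.

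Of 125 genes named between states, 69 kept direction and call under every alternative run, and of 21 between regions, 15 did. Without smooth muscle cells, Actg2 was at 0.43, Myh11 at 0.55, Tagln at 0.10, Acta2 at 0.66 and Cnn1 at 0.29. That fit removed cells by these same genes and also left out shallower cells. The cause of the change in sign was not tested. Thinning turned Pdgfra to 0.0343, Bmp3 to -0.0512 and Esco1 to 0.00580. With 0 mitotic genes, Hist1h2bc was at 0.49, Hist3h2a at -0.00386 and Wt1 at -1.21. Adamdec1 ran from -0.23 to 1.19 with 1 library left out, the lowest without SI replicate 2. Counts of genes with few UMIs are small in LI replicate 1, the shallowest library. Tests of 2 libraries against 2 rest on few libraries.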
